A study of Mus musculus with 60 samples.

Results

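The genes described here were the synaptic adhesion genes of the neurexin, neuroligin and LRRTM families, namely Nrxn2, Nrxn3, Nlgn1, Nlgn2, Nlgn3, Lrrtm1, Lrrtm2, Lrrtm3 and Lrrtm4. A peak belonged to one of the 9 genes when the peak list gave it that gene's symbol. The 9 genes were among 16994 genes with a peak in any of the 12 lists, and they held 549 of the peaks. Of these 549 peaks, 503 were in H4K8ac lists and 46 in H3K27me3 lists.

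Chromatin was profiled by CUT&RUN-seq, in which an antibody tethers a nuclease that releases the DNA around a histone mark, in nuclei from the hippocampus of male Emx1-NuTRAP mice. These mice, in all groups, carried an Emx1-IRES-Cre knock-in allele and the NuTRAP reporter, so that Cre tagged the nuclei of cells with Emx1 expression, which are mostly excitatory neurons but include progenitors and may include some astrocytes. Between postnatal days 21 and 41, exercised mice had free access to a running wheel, sedentary mice lived in standard cages, and both were housed in pairs. Tissue of both conditions was taken on the day after this period. In the SIT arm, nuclei and RNA were isolated together from both hippocampi. In the left separate and right separate arms, called left and right below, 1 hemisphere of a mouse gave nuclei and its opposite gave RNA, which means that different mice stood behind the left and the right lists. The 60 samples fell into 18 groups, with 4 samples in each SIT group and 3 in each separate group, and the 20 IgG control samples had no peak list. Each combination of mark, condition and arm had 1 peak list for its group, so no list had a replicate and the 3 arms were the only repeats of the comparison of exercised with sedentary mice.

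Neurexins sit in the presynaptic membrane and bind partners across the synaptic cleft. Neuroligins and LRRTMs are postsynaptic partners, with Nlgn1 and the LRRTMs mainly at excitatory synapses, Nlgn2 at inhibitory synapses and Nlgn3 at both. Neurexin genes make a long alpha form from an upstream start site and a short beta form from a start site inside the gene. H4K8ac, acetylation of histone H4 at lysine 8, is found at active promoters and enhancers. H3K27me3, trimethylation of histone H3 at lysine 27, is laid down by Polycomb repressive complex 2 and marks silenced genes.

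The sequences on which the peaks of these genes centred are shown first, because most of the peaks lay outside promoters: 436 of the 503 H4K8ac peaks were annotated as intronic and 46 as promoter peaks, and 43 of the 46 H3K27me3 peaks were intronic. All sequences are from the GRCm38.p6 genome, a release of the mouse assembly (mm10) on which the peaks were placed, and each CG dinucleotide is in capitals. The first set holds the middle 300 bases of the stretch shared by most lists, on the plus strand, in the most recurrent H4K8ac region of each of 4 genes. Where regions of a gene tied for the most lists, as in Nlgn1, Lrrtm1 and Lrrtm4, the one with the most covered bases was taken. The Nrxn3, Nlgn1 and Lrrtm4 windows were intronic, and the Lrrtm1 window lay 19.3 kb before the Lrrtm1 start site, inside Ctnna2.
Nrxn3, chr12:89106466-89106765: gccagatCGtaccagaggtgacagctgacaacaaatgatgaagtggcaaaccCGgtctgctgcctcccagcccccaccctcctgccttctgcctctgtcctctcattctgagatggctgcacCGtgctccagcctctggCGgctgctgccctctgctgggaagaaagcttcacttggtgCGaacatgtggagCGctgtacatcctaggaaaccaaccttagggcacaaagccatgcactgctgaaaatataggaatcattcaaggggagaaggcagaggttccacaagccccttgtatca
Nlgn1, chr3:26050896-26051195: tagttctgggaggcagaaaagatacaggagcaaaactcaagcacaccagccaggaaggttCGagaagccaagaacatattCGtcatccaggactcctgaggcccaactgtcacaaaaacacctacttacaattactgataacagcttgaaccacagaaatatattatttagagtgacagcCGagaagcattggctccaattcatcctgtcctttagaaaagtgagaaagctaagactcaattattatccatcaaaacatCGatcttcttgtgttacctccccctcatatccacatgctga
Lrrtm1, chr6:77223216-77223515: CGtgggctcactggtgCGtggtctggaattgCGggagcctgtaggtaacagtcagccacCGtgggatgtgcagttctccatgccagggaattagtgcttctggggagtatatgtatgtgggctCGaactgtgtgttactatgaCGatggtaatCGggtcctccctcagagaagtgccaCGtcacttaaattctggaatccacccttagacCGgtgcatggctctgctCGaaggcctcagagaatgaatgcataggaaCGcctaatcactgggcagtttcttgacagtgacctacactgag
Lrrtm4, chr6:80662071-80662370: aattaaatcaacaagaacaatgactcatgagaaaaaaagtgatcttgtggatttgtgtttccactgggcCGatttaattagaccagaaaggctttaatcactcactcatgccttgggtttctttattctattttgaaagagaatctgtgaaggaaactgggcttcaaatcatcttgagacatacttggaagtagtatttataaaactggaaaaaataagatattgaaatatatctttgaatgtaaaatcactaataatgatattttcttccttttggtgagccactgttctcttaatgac
The window below is the matching one for H3K27me3, from the only region of these genes with an H3K27me3 peak in all 6 lists. Its bases lay under peaks of 5 of the 6 lists, since no base was shared by all 6, and it lay 47.2 kb before the Lrrtm3 start site, inside an intron of Ctnna3.
Lrrtm3, chr10:64137329-64137628: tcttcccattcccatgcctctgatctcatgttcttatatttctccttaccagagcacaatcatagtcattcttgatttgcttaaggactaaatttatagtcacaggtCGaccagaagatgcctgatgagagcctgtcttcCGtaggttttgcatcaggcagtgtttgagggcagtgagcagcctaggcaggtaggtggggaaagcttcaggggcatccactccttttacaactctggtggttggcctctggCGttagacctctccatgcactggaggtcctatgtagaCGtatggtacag
GC content was 55.3% in the Nrxn3 window, 42.3% in the Nlgn1 window, 52.7% in the Lrrtm1 window, 32.0% in the Lrrtm4 window and 48.3% in the H3K27me3 window of Lrrtm3. The number of CG dinucleotides was 6, 4, 11, 1 and 4 in the same order. The medians were 43.7% GC and 3 CG dinucleotides over the middle 300 bases of 63513 merged H4K8ac regions of the whole genome. Those windows lay at the middle of the whole merged region, and not of the stretch shared by most lists. The Lrrtm1 window thus had more CG dinucleotides than the median H4K8ac region and the Lrrtm4 window fewer.

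The second set shows promoters, given as the 250 bases before a start site in the RefSeq promoter table, on the strand of the gene, which is plus for Nrxn3 and minus for Nlgn1, Nlgn2 and Lrrtm3. The table matched 6 of the 9 genes, all but Nrxn2, Nlgn3 and Lrrtm2, with 10 promoter windows in all. The pair from Nrxn3 is shown because an H4K8ac peak lay within 1 kb of the first start site in 5 of 6 lists and of the second, the beta start site, in 0. Nlgn1, Nlgn2 and Lrrtm3 promoters are shown because a peak covered or neighboured them in 5, 1 and 3 lists.
Nrxn3 upstream start, chr12:88953140-88953389: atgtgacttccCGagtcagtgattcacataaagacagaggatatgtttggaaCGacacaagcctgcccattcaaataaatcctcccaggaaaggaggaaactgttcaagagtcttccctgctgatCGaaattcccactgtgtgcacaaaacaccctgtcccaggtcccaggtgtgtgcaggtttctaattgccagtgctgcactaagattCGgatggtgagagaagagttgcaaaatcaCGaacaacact
Nrxn3 beta start, chr12:89812233-89812482: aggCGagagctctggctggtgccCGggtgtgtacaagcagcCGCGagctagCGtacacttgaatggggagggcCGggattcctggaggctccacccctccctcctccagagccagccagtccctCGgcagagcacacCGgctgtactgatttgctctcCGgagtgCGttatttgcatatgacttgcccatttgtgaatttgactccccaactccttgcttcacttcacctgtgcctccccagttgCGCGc
Nlgn1, chr3:26331910-26332159: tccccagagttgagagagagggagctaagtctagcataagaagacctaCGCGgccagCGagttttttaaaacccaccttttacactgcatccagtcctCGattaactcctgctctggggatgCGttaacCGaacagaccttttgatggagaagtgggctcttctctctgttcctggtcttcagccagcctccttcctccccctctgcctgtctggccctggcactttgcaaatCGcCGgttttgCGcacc
Nlgn2, chr11:69837785-69838034: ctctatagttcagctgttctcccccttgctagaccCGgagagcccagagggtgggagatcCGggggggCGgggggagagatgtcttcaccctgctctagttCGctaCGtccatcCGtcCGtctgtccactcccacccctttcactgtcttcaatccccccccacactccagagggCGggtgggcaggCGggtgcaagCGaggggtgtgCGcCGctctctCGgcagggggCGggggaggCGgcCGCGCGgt
Lrrtm3, chr10:64090256-64090505: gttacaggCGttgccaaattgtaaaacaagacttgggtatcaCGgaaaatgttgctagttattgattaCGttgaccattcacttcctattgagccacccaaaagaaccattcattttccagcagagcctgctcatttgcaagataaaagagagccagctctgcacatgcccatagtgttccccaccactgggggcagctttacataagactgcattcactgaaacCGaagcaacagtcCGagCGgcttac
The promoter of Nlgn2 held 18 CG dinucleotides, more than 78.3% of the 32841 promoters in the table, and that of the Nrxn3 beta start held 12, more than 66.5%. The upstream Nrxn3 start had 5, Nlgn1 had 9 and Lrrtm3 had 6. The median promoter of the table held 6.

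Short motifs were counted on both strands, each motif on its own, as a description of the letters only. Windows of these genes lay at the middle of the stretch shared by most lists. Windows of the whole genome lay at the middle of the whole merged region, so the places compared differ. The cAMP response element TGACGTCA occurred in 0 of the 223 middle windows of these genes' H4K8ac regions, and in 0.287% of the H4K8ac windows of the whole genome. The AP-1 motif TGANTCA occurred in 31 of 223 windows, or 13.9%, against 10.3% of all H4K8ac windows. The E-box CAGATG occurred in 43 windows, or 19.3%, against 23.8%. Of the windows and promoters printed above, the Lrrtm4 window and the upstream Nrxn3 promoter each held 1 AP-1 match, and 6.75% of all promoters held one.

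The lists differed in length, and this touches every comparison below. H4K8ac lists held 38136 peaks in exercised and 30358 in sedentary mice of the SIT arm, 12168 and 36425 in the left arm, and 13715 and 25159 in the right arm. H3K27me3 lists held 25693 and 10279, 18262 and 14491, and 9899 and 21790 peaks in the same order. Exercised H4K8ac libraries with a high false discovery rate, both SIT and separate ones, were left out by the authors, so that fewer libraries than the group sizes above stood behind exercised H4K8ac lists, and which ones entered a list is not stated in the tables. Some mice of a sedentary and of the exercised group were also set aside for their RNA data. For the figure that sets SIT peaks of both marks beside RNA, the paper gives fewer mice than the group sizes above, in both conditions. Sedentary SIT lists may thus also rest on fewer libraries. Whether the lists used here hold only those mice is not stated. Promoter peaks made up 19.3% of the sedentary SIT H4K8ac list and 24.1 to 26.5% of the other 5 H4K8ac lists. The lists hold no read counts, so their depth is unknown. Of 6 excitatory neuron markers, 2 to 4 had an H4K8ac promoter peak in a list, and of 6 interneuron markers, among them Gad1, Gad2 and Slc32a1, 0 had one in any list. H3K27me3 promoter peaks were present at 5 of the 6 interneuron markers in each list and at 0 or 1 of the excitatory markers. Of 4 markers each, 0 to 2 astrocyte, 1 or 2 oligodendrocyte and 1 or 2 microglia markers had an H4K8ac promoter peak, and the part of such cells in the results below was not tested. In pooled nuclei, a mark in fewer cells and less of the mark in each cell cannot be told apart.

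Nrxn3, Nlgn1, Lrrtm1, Lrrtm3 and Lrrtm4 had H4K8ac peaks in all 6 lists, while Nrxn2, Nlgn2, Nlgn3 and Lrrtm2 had between 1 and 4 such peaks in total. All 9 genes had an H4K8ac peak in at least 1 list, as did 79.9% of the genes with a peak in any of the 12 lists. H3K27me3 peaks were found for 2 of the 9 genes. They were present for Lrrtm3 in every list and for Nrxn2 in 2 lists. Over all genes with a peak in any list, 43.5% had an H3K27me3 peak. The 5 genes with H4K8ac in all 6 lists compare with 24.1% of all genes that had any H4K8ac peak. Of genes of 100 kb or longer with any H4K8ac peak, 48.1% were in all 6 H4K8ac lists, as were 4 of the 5 members of that length. Lrrtm1, at 15.1 kb, was the fifth gene in all 6 lists, and Nrxn2, at 125 kb, was the long member that was not.

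**Figure D1:**
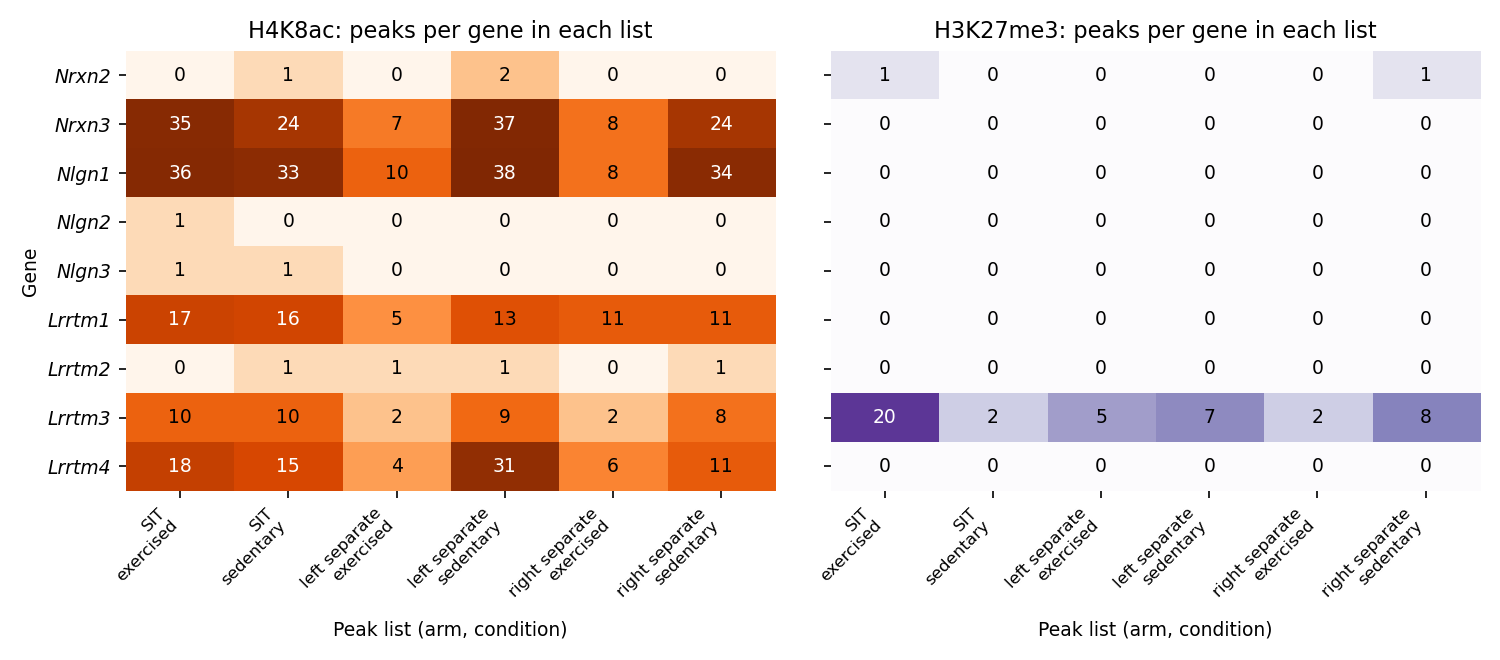
Number of H4K8ac (left) and H3K27me3 (right) peaks given to each of the 9 genes (rows) in each of 6 lists per mark (columns, by arm and condition), with darker shades for more peaks. Nrxn3 and Nlgn1 reached 37 and 38 H4K8ac peaks in the left sedentary list, and Lrrtm3 alone had H3K27me3 peaks in every list.

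Among the neurexins, Nrxn3, a gene of 1612 kb on the plus strand of chromosome 12, held 135 H4K8ac peaks and no H3K27me3 peak. It had 35 peaks in exercised and 24 in sedentary mice of the SIT arm, 7 and 37 in the left arm, and 8 and 24 in the right arm. The short exercised lists of both separate arms held the fewest. Peak widths ran from 722 to 5335 bp, with a median of 1632 bp, and 116 of the 135 peaks were annotated as intronic and 9 as promoter peaks. The widest peak, of 5335 bp, lay in intron 7 in the right sedentary list.

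Nrxn3 peaks gathered toward the 5′ end. Merging overlapping peaks of the 6 lists gave 64 regions. With the gene divided into 4 equal parts from the 5′ end, the parts held 36, 14, 3 and 7 regions, and 4 lay outside the gene. Many of these regions were in 1 list only, and the parts held 2, 2, 0 and 1 regions found in 5 or 6 lists. In the longest annotated transcript, intron 1, with 464 kb or 28.8% of the gene, held 39 regions, or 8.41 per 100 kb. Intron 13, of nearly the same length at 443 kb, held 3 regions, or 0.677 per 100 kb. The region found in all 6 lists, chr12:89105260-89108306, was in intron 1. The stretch of it shared by most lists, from whose middle the distances of regions are given throughout, was 86.5 kb from the nearest Nrxn3 start site, and its peaks were 1278 to 2696 bp wide. Of the 5 regions found in 5 lists, 1 lay 102 kb before the gene and 2 lay in intron 7.

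Of the 6 start sites of Nrxn3, 3 had an H4K8ac peak within 1 kb in at least 1 list. The start site 231 kb from the outermost one had a peak in 5 lists, all but the sedentary SIT list. The outermost start site had a peak in the left sedentary list, and the one 2.13 kb from it in that list and in the exercised SIT list. The beta start site, 1090 kb from the outermost start, had none within 1 kb in any list. Scaled to the length of each list, peak bases of Nrxn3 were 798 bp per Mb covered by the exercised SIT list and 741 in the sedentary one, 427 and 1070 in the left arm, and 530 and 1003 in the right arm. The share was thus lower in exercised mice in both separate arms and slightly higher in SIT.

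Nrxn2, 125 kb on the plus strand of chromosome 19, had 3 H4K8ac peaks, 1 in the sedentary SIT list and 2 in the left sedentary list. All 3 lay in intron 17, in 1 merged region, chr19:6501586-6504248, 5.67 kb from the start site of the beta form. None of the 8 start sites of Nrxn2 had an H4K8ac peak within 1 kb. H3K27me3 was listed once in the exercised SIT list, as a peak of 2964 bp, and once in the right sedentary list, as a peak of 2692 bp. The pair overlapped in 1 region, chr19:6457967-6463050. The region of one mark did not overlap that of the other, and no arm and condition had both marks at Nrxn2.

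Among the neuroligins, Nlgn1, which spans 906 kb on the minus strand of chromosome 3, had 159 H4K8ac peaks, the most of the 9 genes, and no H3K27me3 peak. It had 36 peaks in exercised and 33 in sedentary mice of the SIT arm, 10 and 38 in the left arm, and 8 and 34 in the right arm. The bases covered in the 6 lists summed to 289 kb, which placed it 83rd of 16994 genes, a rank without regard to gene length. In peaks per 100 kb, Nlgn1 was above 68.5 to 86.2% of 2490 genes of 100 kb or longer, depending on the list. Between 1 and 9 further peaks a list fell within the gene or 3 kb either side of it but carried the symbol Naaladl2, a neighbouring gene.

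The 159 peaks formed 65 regions. Intron 5 of the longest transcript, with 473 kb or 52.1% of the gene, held 41 of them, or 8.68 per 100 kb, and intron 3 held 13 in 213 kb, or 6.10 per 100 kb. The 4 equal parts of the gene held 11, 16, 35 and 2 regions from the 5′ end, so that the densest was the third where in Nrxn3 it was the first. Regions found in 5 or 6 lists numbered 1, 3, 2 and 0 in these parts, so that the second held the most. Regions at chr3:25828691-25835264 in intron 5, chr3:26046541-26052756 in intron 3 and chr3:26327108-26334918 over the outermost start site were found in all 6 lists. At the last of these, no base was shared by all 6 lists. The widest Nlgn1 peak, of 5232 bp, lay in the intron 5 region in the exercised SIT list.

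Alternative promoters of Nlgn1 were marked to different extents. The outermost start site and the start site 179 kb from it each had an H4K8ac peak within 1 kb in 5 lists, again all but the sedentary SIT list. The start site 199 kb from the outermost one had a peak in the exercised SIT and the right sedentary list. Peak bases were 1001 bp per Mb of the list in exercised and 1007 in sedentary mice of the SIT arm, 735 and 1021 in the left arm, and 486 and 1130 in the right arm. The 3 sedentary values lay within a narrow range, and the exercised values were lower in both separate arms.

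**Figure D2:**
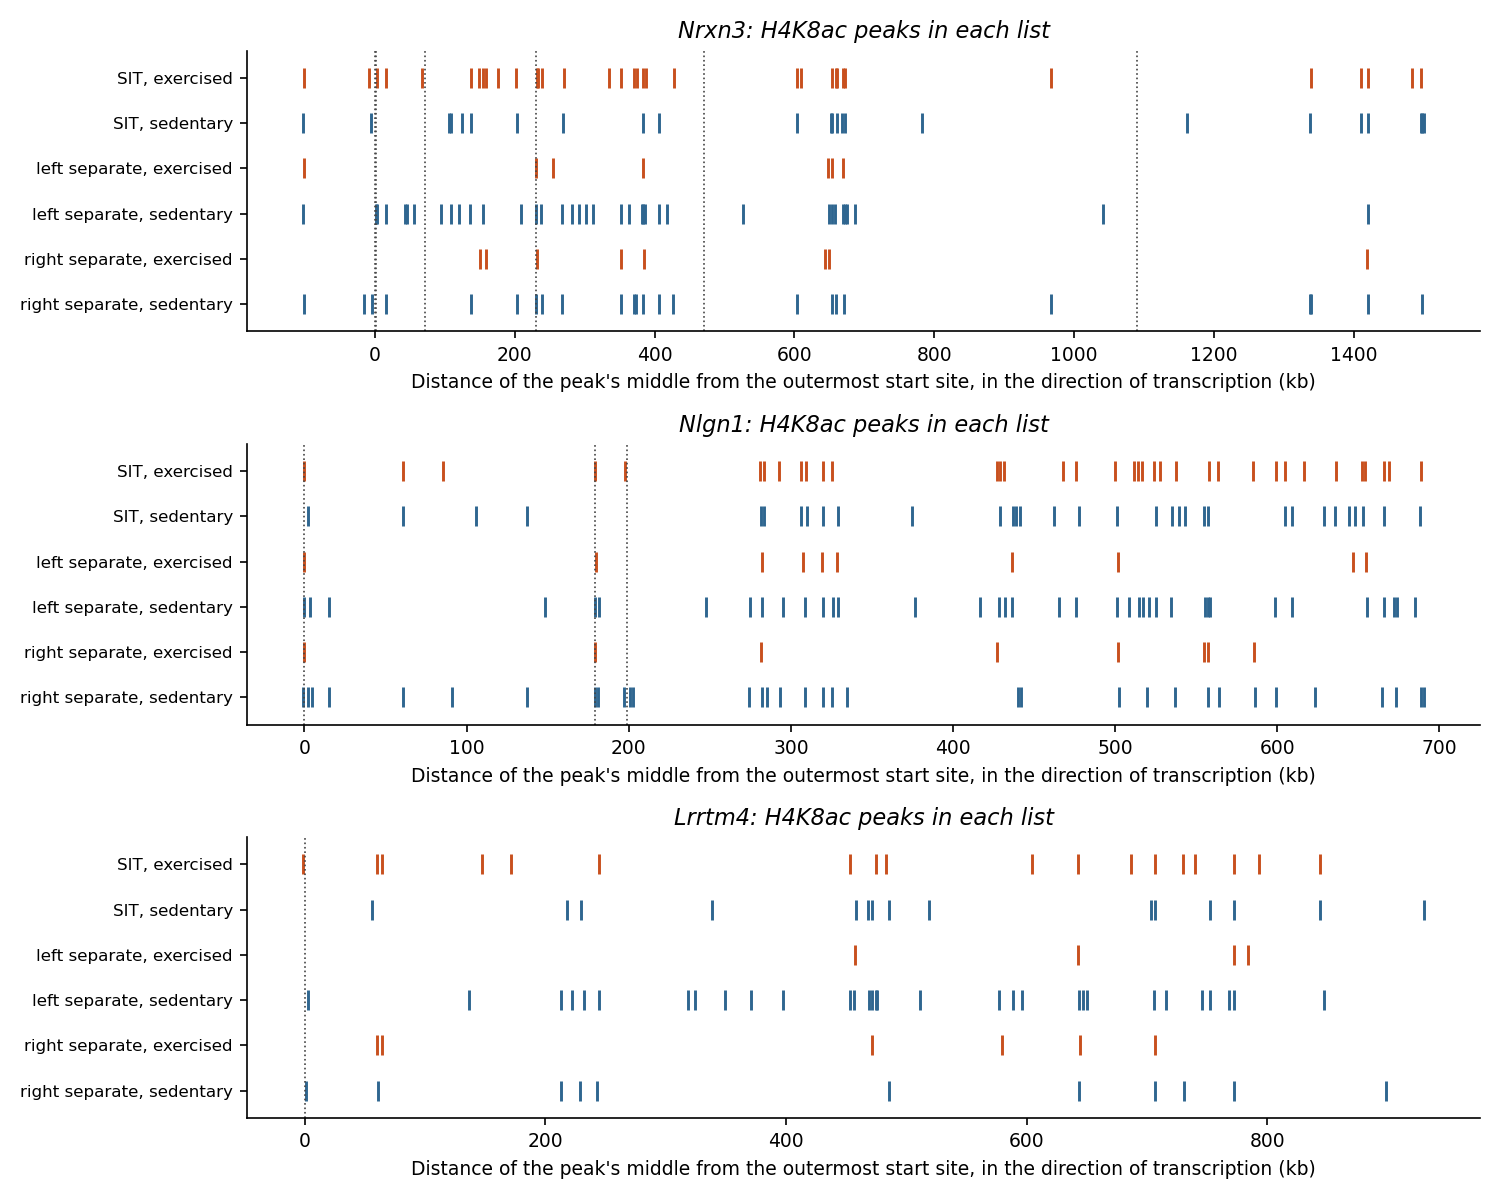
Middles of the H4K8ac peaks given to Nrxn3, Nlgn1 and Lrrtm4 (ticks) by distance from the outermost start site in kb, with 1 row per list (orange exercised, blue sedentary) and dotted lines at annotated start sites. Of 4 equal parts of the gene, Nrxn3 regions were most numerous in the first (36) and Nlgn1 regions in the third (35), and Lrrtm4 parts held 7, 12, 14 and 15.

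Nlgn2 and Nlgn3 had almost no peaks. Nlgn2, 14.7 kb long, had 1 H4K8ac peak, 1759 bp wide, in the exercised SIT list. That peak covered the outermost of its 3 start sites and also the start site of the neighbouring gene Tmem256. Nlgn3, 26.8 kb long on chromosome X, had 1 H4K8ac peak in each SIT list, 1334 bp wide in exercised and 1038 bp wide in sedentary mice. Both lay between genes, 6.87 to 8.20 kb after the end of Nlgn3, so 0 of the 3 start sites of Nlgn3 had a peak within 1 kb. Neither gene had an H3K27me3 peak in any list, so their promoters appeared in no H3K27me3 list and, for Nlgn3, in no H4K8ac list.

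The LRRTM genes have few exons, and 3 of the 4 lie inside an alpha-catenin gene on the opposite strand: Lrrtm1 in Ctnna2, Lrrtm2 in Ctnna1 and Lrrtm3 in Ctnna3. Peaks named for them by the nearest start site can therefore lie in an intron of the host. For Lrrtm1, 55 of the 73 H4K8ac peaks lay in Ctnna2 outside Lrrtm1 itself and 18 inside it. For Lrrtm3, 10 of 41 H4K8ac peaks and 43 of 44 H3K27me3 peaks lay outside the gene in Ctnna3.

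By symbol, Lrrtm1 had the most regions with H4K8ac in all 6 lists of the 9 genes, although none of these regions lay in Lrrtm1 itself and the left exercised list had 0 peaks within the gene or 3 kb either side. It had 17 peaks in exercised and 16 in sedentary mice of the SIT arm, 5 and 13 in the left arm, and 11 and 11 in the right arm. Of its 16 merged regions, 4 were found in all 6 lists and 2 in 5 lists. These 4 regions were chr6:77193428-77199907, chr6:77205866-77214962, chr6:77218122-77227018 and chr6:77290502-77294963, centred 46.9, 28.9, 19.3 and 50.8 kb from the Lrrtm1 start site, all of them outside the 15.1 kb gene. All but 1 of the 73 peaks lay within 60 kb of the start site. The widest peak of the 9 genes, 9064 bp, was at the second of these regions in the exercised SIT list. The Lrrtm1 start site had a peak within 1 kb in the exercised SIT list and in both separate sedentary lists. Peak bases of Lrrtm1 were 622 and 619 bp per Mb in exercised and sedentary SIT, 420 and 516 in the left arm, and 858 and 567 in the right arm. The right arm was thus the one with the higher share in exercised mice, and SIT was level.

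Lrrtm2, the shortest of the 9 genes at 6.02 kb, was the member whose start site had an H4K8ac peak within 1 kb in all 6 lists. The lists gave it a peak in 4 of them, 3017 bp wide in the left exercised list and 2126, 2213 and 4080 bp wide in the SIT, left and right sedentary lists. In the exercised SIT and exercised right lists, the peaks within 1 kb of that start site carried the symbol of the host gene, Ctnna1. Reading the symbols alone, Lrrtm2 was absent from these lists, but by position a peak was present in both. The merged Lrrtm2 region also held a Ctnna1 start site, so its peaks cannot be given to 1 of these genes. The Lrrtm2 start site itself lay inside a peak in 4 lists.

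Lrrtm4, 791 kb on the plus strand of chromosome 6, lies in no host gene. It had 18 H4K8ac peaks in exercised and 15 in sedentary mice of the SIT arm, 4 and 31 in the left arm, and 6 and 11 in the right arm, and no H3K27me3 peak. Of its 54 regions, 47 were in intron 2, which makes up 99.3% of the gene, and 36 were found in 1 list only. The 4 equal parts of the gene held 7, 12, 14 and 15 regions from the 5′ to the 3′ end. No region was found in all 6 lists, and the 3 found in 5 lists were all in the last of these, 643, 706 and 772 kb from the nearest start site. The start site had a peak within 1 kb in the exercised SIT and the right sedentary list. Peak bases were 352 and 424 bp per Mb in exercised and sedentary SIT, 330 and 694 in the left arm, and 474 and 402 in the right arm, so the direction differed among the arms.

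Lrrtm3, 162 kb on the minus strand of chromosome 10, was the only one of the 9 genes with peaks of both marks in every list. It had 10 H4K8ac peaks in exercised and 10 in sedentary SIT, 2 and 9 in the left arm, and 2 and 8 in the right arm. H4K8ac was listed at its start site in the exercised SIT list and in both separate sedentary lists, and 13 of its 20 H4K8ac regions lay in intron 2. The most recurrent, chr10:64038610-64042153, was found in 5 lists, 50.6 kb into the gene. H4K8ac peak bases were 275 and 267 bp per Mb in exercised and sedentary SIT, 135 and 192 in the left arm, and 108 and 299 in the right arm.

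H3K27me3 at Lrrtm3 lay on the other side of the start site. There were 20 peaks in exercised and 2 in sedentary SIT, 5 and 7 in the left arm, and 2 and 8 in the right arm. Of these 44 peaks, 43 had their middles 30.3 to 513 kb before the Lrrtm3 start site, inside Ctnna3. All but 2 fell into a pair of groups, with 10 peaks 30.3 to 50.2 kb and 31 peaks 161 to 267 kb before the start. In the first group, the region chr10:64133294-64141789, in intron 7 of Ctnna3, had a peak in all 6 lists, of 2032 to 7769 bp. In the second, the region chr10:64312946-64320094, in intron 9 of Ctnna3, had a peak in 5 lists, all but the right exercised list. The widest H3K27me3 peak, of 7815 bp, was also in intron 9, in the exercised SIT list. No H3K27me3 peak came within 3 kb of the Lrrtm3 start site.

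The single H3K27me3 peak inside Lrrtm3 was in the exercised SIT list, at chr10:64082369-64087039, 4671 bp wide. In the same arm and condition, an H4K8ac peak of 2611 bp, at chr10:64084251-64086861, lay wholly within it. This was the only place in the 9 genes where peaks of both marks from 1 arm and condition overlapped. In pooled lists, nuclei with both marks and a mixture of nuclei with either mark cannot be told apart. Peak bases of H3K27me3 at Lrrtm3 were 540 and 133 bp per Mb in exercised and sedentary SIT, 260 and 301 in the left arm, and 85.7 and 180 in the right arm, so the SIT arm went one way and the separate arms the other.

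**Figure D3:**
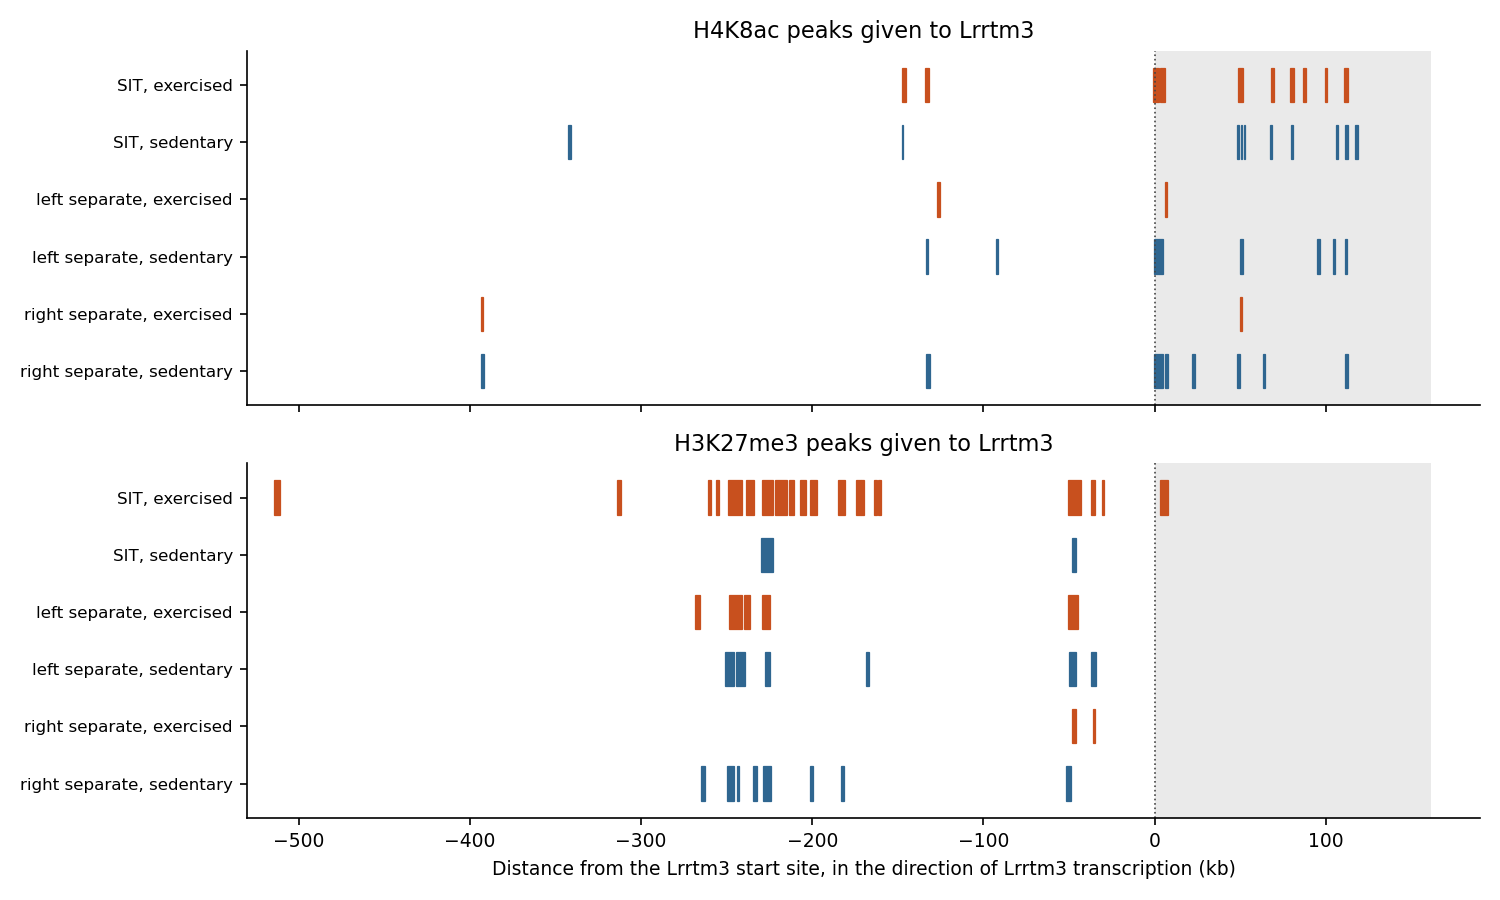
H4K8ac (top) and H3K27me3 (bottom) peaks given to Lrrtm3, drawn to scale by distance from its start site in kb, with 1 row per list (orange exercised, blue sedentary) and the gene shaded in grey. H4K8ac bars lie mostly within the gene, whereas 43 of the 44 H3K27me3 bars lie before its start site.

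Across the 9 genes, the annotation held 27 separate start sites, 17 of them with a coding transcript. An H4K8ac peak lay within 1 kb of 11 start sites in at least 1 list, and within 1 kb of 9 of the 17 coding ones. The numbers were 10 start sites in the exercised SIT list, 4 in each separate exercised list, 8 in each separate sedentary list and 1, that of Lrrtm2, in the sedentary SIT list. Over all genes, the number with an H4K8ac promoter peak was 6903 in exercised and 4443 in sedentary SIT, 2547 and 6464 in the left arm, and 3049 and 4814 in the right arm. The sedentary SIT list was thus the lowest for the start sites of the 9 genes but lay above both separate exercised lists over all genes. It held 101 H4K8ac peaks of these genes against 29 and 35 in the separate exercised lists, and its share of promoter peaks over all genes was also the lowest. H3K27me3 peaks lay within 1 kb of 0 of the 27 start sites, and within 3 kb of 0. Over all genes, promoter peaks made up 17.9 to 25.4% of an H3K27me3 list, and 1901 to 3562 of the 16994 genes had one in a list.

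**Figure D4:**
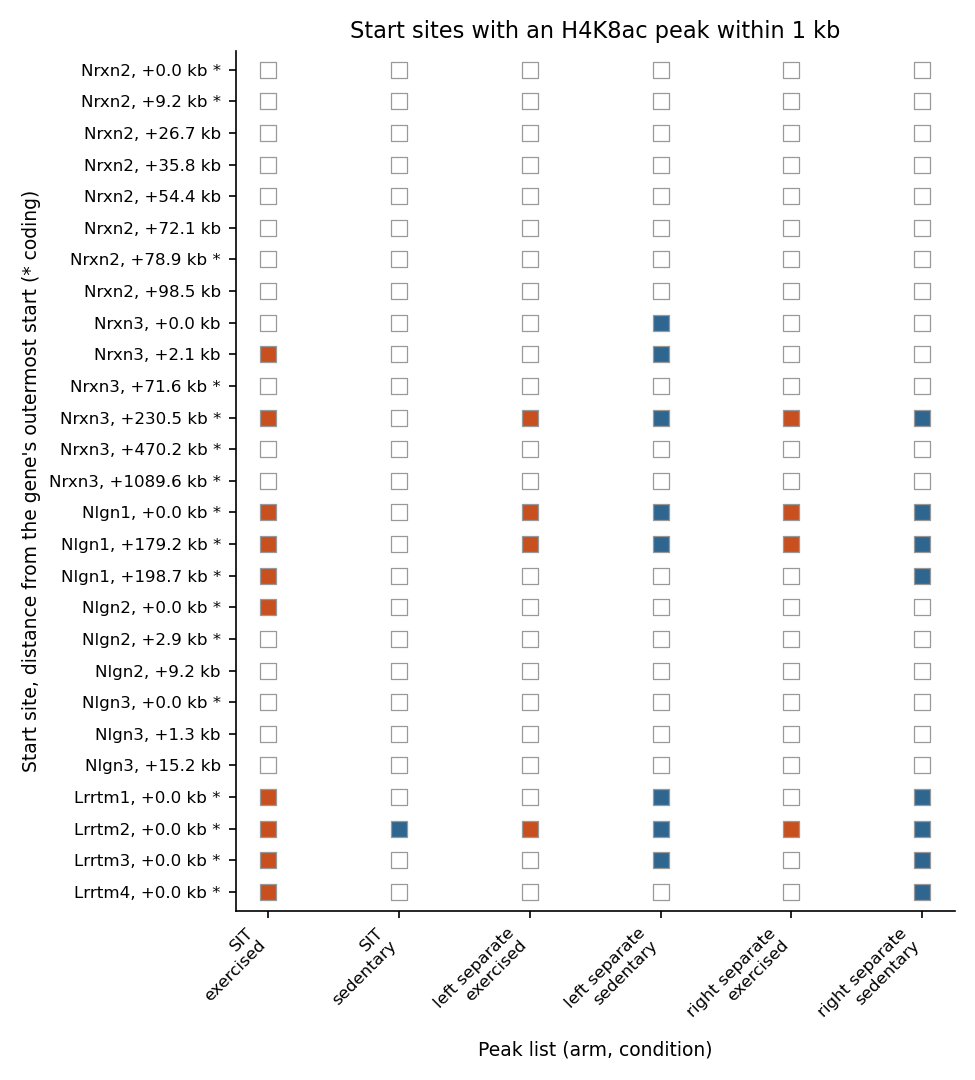
The 27 start sites of the 9 genes (rows, named by distance in kb from the outermost start, with an asterisk for coding transcripts) against the 6 H4K8ac lists (columns), with a filled square where a peak lay within 1 kb (orange exercised, blue sedentary). The start site of Lrrtm2 is filled in all 6 lists, those of Nrxn2 and Nlgn3 in none, and the sedentary SIT column has 1 filled square.

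The next comparison asked whether a gene gained or lost its listing with exercise, within each arm. For H4K8ac in SIT, 1 of 9 genes was in the exercised list alone (Nlgn2) and 2 were in the sedentary list alone (Nrxn2 and Lrrtm2), against 27.5% and 10.1% of all genes listed in that arm. In the left arm, 0 of 7 genes with a peak were in the exercised list alone and 1 (Nrxn2) in the sedentary list alone, against 3.58% and 51.9%. In the right arm, 0 of 6 were in the exercised list alone and 1 (Lrrtm2) in the sedentary list alone, against 9.14% and 36.7%. The other 17 calls with a peak were shared by both conditions. Counted by position, within the gene and 3 kb either side of it, Lrrtm2 was shared in SIT and in the right arm, Nlgn3 had no peak in SIT, and Lrrtm1 was lost in the left arm, where it had 0 peaks in exercised and 4 in sedentary mice. The calls by position over the 3 arms were 1 gained, 3 lost, 17 shared and 6 with no peak, against 1, 4, 17 and 5 by symbol.

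For H3K27me3, 1 of 2 listed genes (Nrxn2) was in the exercised SIT list alone and 0 in the sedentary one alone, against 41.4% and 1.02% of all genes in that arm. In the left arm, Lrrtm3 was shared and 0 genes were gained or lost, where 18.5% and 9.13% of all genes were. In the right arm, 0 were gained and 1 of 2 (Nrxn2) lost, against 3.12% and 43.6%. Lrrtm3 was in all 6 H3K27me3 lists, as were 38.0% of the genes with any H3K27me3 peak. Counted by position within the gene and 3 kb either side in place of the symbol, Lrrtm3 had an H3K27me3 peak in the exercised SIT list alone.

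Covered bases of the 9 genes were then compared as a share of all bases covered by a list. For H4K8ac the share was 3087 bp per Mb in exercised and 3164 in sedentary SIT, 2164 and 3562 in the left arm, and 2456 and 3473 in the right arm. The share was lower in exercised mice in 3 of 3 arms, by little in SIT. The mean log2 ratio of exercised to sedentary was -0.42 ± 0.35 (SD, n = 3 arms), and the exact two-sided sign-flip permutation test gave p = 0.25, the smallest it can give with 3 arms (0.50 after Benjamini-Hochberg adjustment over 2 tests). Without scaling to the list, the direction in SIT turned, with 247775 bp covered in exercised and 146822 bp in sedentary mice, so that 2 of 3 arms were lower in exercised mice. The left arm then had 55787 and 234817 bp and the right arm 60214 and 194854 bp, and the mean log2 ratio was -1.0 (exact two-sided sign-flip permutation p = 0.50).

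For H3K27me3 the share was 561 bp per Mb in exercised and 133 in sedentary SIT, 260 and 301 in the left arm, and 85.7 and 203 in the right arm. The log2 ratios were 2.08, -0.22 and -1.25, with a mean of 0.21 ± 1.70 (SD, n = 3 arms; exact two-sided sign-flip permutation p = 1.0). Without the SIT arm the mean was -0.73. The difference was smaller than the spread between arms, and nearly all of these bases were those before the Lrrtm3 start site.

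**Figure D5:**
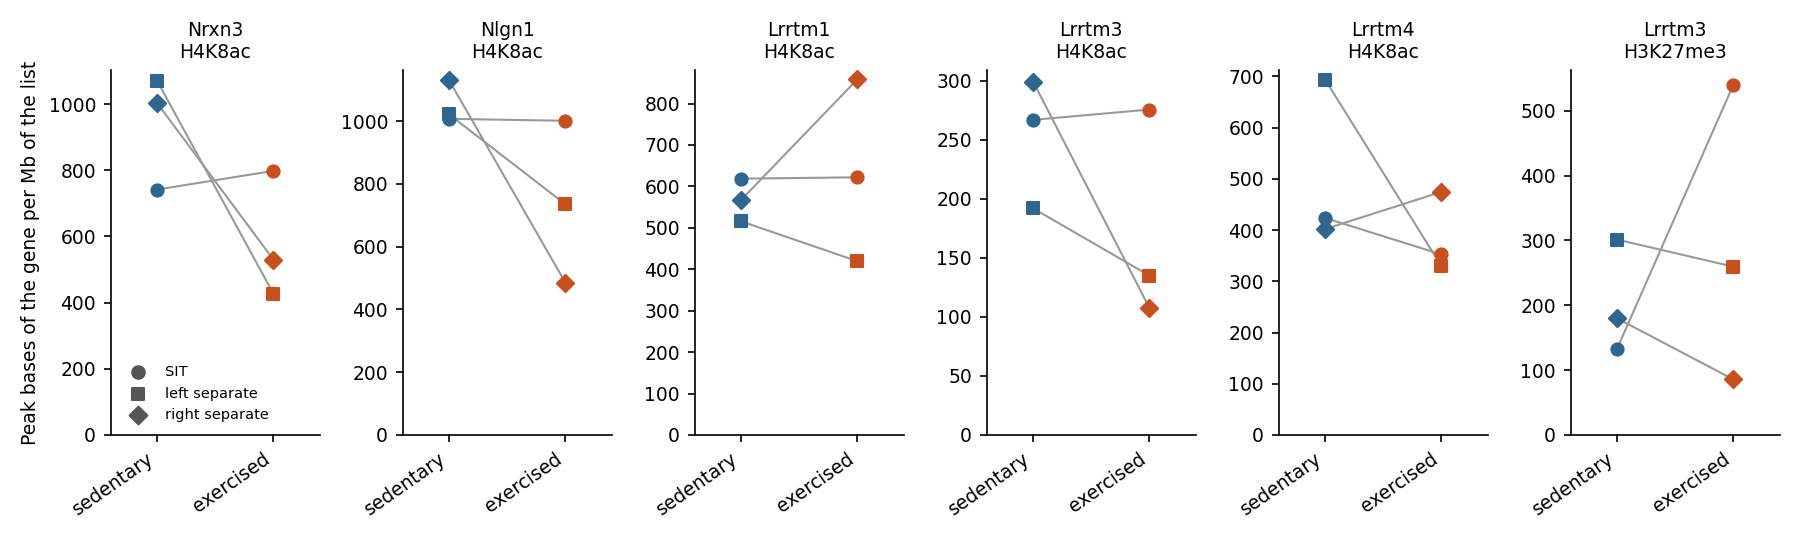
Peak bases of a gene per Mb covered by the list (vertical axis, from 0) in sedentary and exercised mice, with a line joining the lists of each arm, for H4K8ac at 5 genes and H3K27me3 at Lrrtm3. Nrxn3, Nlgn1 and Lrrtm3 had lower H4K8ac shares in exercised mice of both separate arms, with SIT values of 798 and 741, 1001 and 1007, and 275 and 267 bp per Mb in exercised and sedentary mice.

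Single regions recurred less than genes did. The 9 genes had 223 merged H4K8ac regions, of which 119 (53.4%) were found in 1 list and 8 (3.59%) in all 6, against 49.9% and 5.99% of 63514 regions of the whole genome. In 6 of the 8, at least 1 base was shared by all 6 lists. These 8 regions were 4 of Lrrtm1, 3 of Nlgn1 and 1 of Nrxn3. Regions found in exercised lists alone numbered 37, in sedentary lists alone 104 and in both 82. Within arms, SIT had 63 regions in exercised mice alone, 45 in sedentary mice alone and 42 in both. The left arm had 4, 92 and 24, and the right arm 9, 56 and 21. The direction of these counts follows that of list length in each arm. Of the 23 merged H3K27me3 regions, 16 (69.6%) were in 1 list and 1 (4.35%) in all 6, against 37.5% and 16.7% of all H3K27me3 regions.

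H4K8ac peaks named for a gene, per 100 kb of its length, were read beside 2490 genes of 100 kb or longer. In the exercised SIT list, Lrrtm3 had 6.18 peaks per 100 kb, Nlgn1 3.97, Lrrtm4 2.27, Nrxn3 2.17 and Nrxn2 0, where the median long gene had 1.38. In the sedentary SIT list, the values were 6.18, 3.64, 1.90, 1.49 and 0.797 in the same order, where the median was 0.989. By symbol, Lrrtm3 was highest and Nlgn1 second in all 6 lists, but 10 of the 41 Lrrtm3 peaks lay outside the gene. With peaks inside the gene alone, Lrrtm3 was above Nlgn1 in both SIT lists and in the left sedentary list, and below it in the other 3 lists, with 0.618 against 1.10 per 100 kb in the left exercised, 0.618 against 0.883 in the right exercised and 3.71 against 3.75 in the right sedentary list. Lrrtm4 was above Nrxn3 by symbol in 5 lists, and below it in the right sedentary list, with 1.39 and 1.49 peaks per 100 kb. Inside the genes it was below Nrxn3 in the exercised SIT list too, with 1.90 and 2.05. Nrxn2 had none in 4 lists, was below the median in the sedentary SIT list and was above it in the left sedentary list, with 1.59 against 1.33.

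The listing of each gene over the 12 lists was compared with that of all 16994 genes. Nrxn3, Nlgn1, Lrrtm1 and Lrrtm4 had the same listing, H4K8ac in all 6 lists and H3K27me3 in none, which 2333 other genes shared with each of them. The 3 genes of that kind nearest to Nlgn1 in covered H4K8ac bases were Sh3gl2, Nkain3 and Nav3, with 287, 291 and 285 kb against 289 kb. Those nearest to Nrxn3, at 249 kb, were Kcnip4, Pcdh20 and 4930568G15Rik, with 249.0, 249.8 and 248 kb. Lrrtm3 was one of the genes in all 12 lists, with 309 others. Nrxn2 shared its listing with 5 other genes, Lrrtm2 with 15, Nlgn3 with 193 and Nlgn2, in 1 list, with 683.

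Other genes of trans-synaptic adhesion were read from a list of 37 partners, which includes cerebellins, latrophilins, teneurins, receptor tyrosine phosphatases and Slitrks. Of these, 36 had a peak in any of the 12 lists. H4K8ac was listed for 34 of the 36, against 79.9% of all genes with a peak in any list, and 17 were in all 6, against 24.1% of the genes with any H4K8ac peak. Of the 16 partners of 100 kb or longer, 11 were in all 6 lists, against 48.1% of such genes. The partners with an H4K8ac promoter peak in all 6 lists and the most covered bases were Tenm2, a teneurin, with 258 peaks over the 6 lists, Ptprd, a receptor phosphatase, with 246, Lrrc4c, a netrin-G ligand, with 198, and Slitrk5 with 148. In SIT, 5 partners were gained, 4 lost and 23 shared, where 27.5% and 10.1% of all listed genes were gained and lost. In the left arm the partner counts were 0, 7 and 21, against 3.58% and 51.9% of all listed genes. In the right arm they were 2, 7 and 20, against 9.14% and 36.7%. H3K27me3 was listed for 14 of the 36, against 43.5% of all genes with a peak in any list, and in all 6 lists for 8 of these 14, against 38.0%. Those with an H3K27me3 promoter peak in all 6 lists were Adgrl2, a latrophilin, with 501 peaks, Tenm3 with 136, and the secreted neurexin ligands Cbln4 with 50 and Cbln2 with 54. For H3K27me3, 3 partners were gained, 0 lost and 11 shared in SIT, against 41.4% and 1.02% of all listed genes gained and lost. The counts were 1, 0 and 12 in the left arm, against 18.5% and 9.13%, and 1, 4 and 9 in the right arm, against 3.12% and 43.6%.

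Of 15 scaffold genes, whose proteins bind the cytoplasmic tails of neurexins and neuroligins or sit close to them, 14 had a peak in any of the 12 lists. All 14 had an H4K8ac peak in at least 1 list, against 79.9% of all genes with a peak in any list, and 5 had one in all 6, against 24.1% of the genes with any H4K8ac peak. All 5 were among the 11 scaffold genes of 100 kb or longer, where 48.1% of all such genes were in all 6. Those with a promoter peak in all 6 lists were Magi2 with 297 peaks, Dlg2 with 228, Apba2 with 80 and Dlg1 with 32. H4K8ac was gained at 2, lost at 0 and shared at 10 scaffold genes in SIT, against 27.5% gained and 10.1% lost over all listed genes. These counts were 1, 4 and 6 in the left arm, against 3.58% and 51.9%, and 1, 3 and 9 in the right arm, against 9.14% and 36.7%. H3K27me3 was listed for 4 of the 14 scaffold genes with a peak, against 43.5% of all genes with a peak in any list, and of the 4 Dlg1 had promoter peaks in 4 lists. H3K27me3 was gained at 2, lost at 0 and shared at 2 scaffold genes in SIT, against 41.4% gained and 1.02% lost over all listed genes. These counts were 0, 0 and 4 in the left arm, against 18.5% and 9.13%, and 0, 2 and 2 in the right arm, against 3.12% and 43.6%. Of the host genes, counted by symbol, Ctnna2 had 221 H4K8ac peaks, Ctnna1 24 and Ctnna3 15, and Ctnna3 alone had H3K27me3 peaks, 5 in 4 lists. These counts leave out peaks that lay in a host gene but carried an Lrrtm symbol. Such peaks were 55 H4K8ac peaks named Lrrtm1 in Ctnna2, and 10 H4K8ac and 43 H3K27me3 peaks named Lrrtm3 in Ctnna3.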

How the data were processed

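Each deposited table lists peaks with their position and width in bp and, per the file headers, the kind of feature, a transcript with its distance and a symbol. Read counts, signal and p-values are not among the columns, so the depth behind a peak is unknown and count tests could not be run. The authors aligned reads with Bowtie2 2.4.1, ran SEACR to call peaks and used ChIPseeker 1.8.6 to annotate them, with promoters as 3 kb either side of a start site on mm10. How libraries were combined into a list is not given in the sources used here, and IgG samples are not analysed here. Groups came from the labels.

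Peaks were read in Python 3 with pandas and placed on GENCODE M21 genes (GRCm38). For 545 of 549 peaks of the 9 genes, the listed distance matched the start of the listed transcript in that release. Start sites up to 1000 bp apart were joined. Peaks of the 6 lists of a mark were merged where they overlapped. A gene was gained or lost when it had a peak in the exercised or the sedentary list of an arm alone. Covered share was tested over 3 arms with exact two-sided sign flips (a permutation test). Functions were tested on simulated data. The genes and gene lists were chosen with earlier results of these data known. The text names the 9 genes, for each the region in most lists and the widest peak, and of the partner, scaffold and host lists up to 4 genes with promoter peaks in most lists. Alternatives included peaks by position, promoter peaks alone, the widest 50% of peaks and lists of equal length.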

Additional observations from a re-analysis of the deposited data

Results flagged for a closer look

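H3K27me3 at Nrxn2 went opposite ways in different arms, with 1 peak in the exercised SIT list and none in the sedentary one, and 1 peak in the right sedentary list and none in the exercised one. Each call rested on 1 peak, and the difference between the arms was not tested. The H3K27me3 covered share of the 9 genes also differed in direction among the arms, with log2 ratios of exercised to sedentary of 2.08 in SIT, -0.22 in the left arm and -1.25 in the right arm. Over all genes, the exercised H3K27me3 list was longer than the sedentary one in SIT (25693 and 10279 peaks) and in the left arm (18262 and 14491) and shorter in the right arm (9899 and 21790). This difference between the arms was not tested either.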

How the results depend on the processing

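The mean H4K8ac covered share kept its direction under every alternative tried, with mean log2 ratios from -1.0 (no scaling to the list) to -0.27 (without the left arm), and no p could fall below 0.25. The single arms did not always do so. The exact two-sided sign-flip permutation p was 0.75 with promoter peaks alone. It was 0.50 with the widest 50%, with lists of equal length and with no scaling. With 3 arms, a p above 0.25 means that the arms did not all go the same way. The H3K27me3 share was -0.73 without the SIT arm and 0.93 without the right arm. It could not be computed by position, with promoter peaks, the widest 50% or peaks inside the genes alone, or without Lrrtm3, since a list then held no base. Over the 3 arms, H4K8ac status calls were 1 gained, 4 lost, 17 shared and 5 with no peak. They became 0, 1, 15 and 11 with at least 2 peaks and 4, 8, 7 and 8 with promoter peaks alone, and with the widest 50% 0 were gained and 8 had no peak. H3K27me3 calls of 1 gained, 1 lost and 3 shared became 0 gained and 0 lost with at least 2 peaks, with promoter peaks alone (0 shared) or with lists of equal length, 2 gained and 0 shared by position, and 0 gained with the widest 50%. Regions in all lists numbered 5 in place of 8 for H4K8ac and 0 in place of 1 for H3K27me3 by position. With the widest 50%, H4K8ac gains were 4 in place of 7 for partners and 0 in place of 4 for scaffolds, and H3K27me3 losses of scaffolds were 0 in place of 2. With promoter peaks alone, H3K27me3 gains and losses were 3 and 2 in place of 5 and 4 for partners, and 1 and 1 in place of 2 and 2 for scaffolds. The cause was not tested. Of 95 values under alternatives, 66 kept their direction and, for counts, stayed within 1.5 times, 28 counts moved further and 1 value, the H3K27me3 share without the SIT arm, reversed. No paired analysis was possible because the lists carry no replicate numbers by which libraries could be paired. The arms alone paired exercised with sedentary lists. Leaving out promoter peaks, or peaks outside the genes, was chosen after seeing the data.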
